A study of Mus musculus with 6 samples.

Results

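The 9 genes described here belong to the interleukin-6 (IL-6) cytokine family and its shared receptor pathway. They were measured in cultures labelled as primary mouse hepatic stellate cells, which markers below show to be mixed. They are 3 ligand genes (Il6, Il11 and Lif), 4 receptor genes (Il6ra, Il6st, Osmr and Lifr), the transcription factor gene Stat3 and the feedback inhibitor gene Socs3. They were chosen by symbol, and all 9 were found among the 40879 gene symbols of each library. The APB-R3 group was 3 libraries of these cultures kept for 24 h with APB-R3, an engineered IL-18 binding protein. Its dose was given as 150 µg per ml in one label and per kg in another. The vehicle group was 3 libraries of the same kind of cells kept for 24 h with vehicle. Cells of both groups came from wild-type male mice, and neither strain nor age is given in the labels used here. The labels do not state whether the replicates are different mice or dishes, and the spread on which every p-value rests may therefore be a technical one.

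The family is built around gp130, the signalling receptor chain encoded by Il6st. IL-6 and IL-11 first bind their own alpha chains, encoded by Il6ra and Il11ra1, and then recruit gp130, whereas LIF and oncostatin M act through gp130 paired with the chains encoded by Lifr or Osmr. Janus kinases bound to these chains phosphorylate STAT3, which enters the nucleus and induces, among many genes, Socs3, whose product binds the receptor and shuts the signal down. In liver, IL-6 is known as the main inducer of the acute-phase response of hepatocytes, and IL-11 and LIF as products of stromal cells, stellate cells included.

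Promoter windows of the 3 ligands and of the feedback gene are shown, the only member windows with a match to the letters marked below. Whether these matches bear on the levels described later was not tested. All 9 members had a promoter window in RefSeq on the build GRCm38.p6, 11 windows in all, each from 250 bases before to 50 bases after an annotated start. Capitals mark matches on either strand to GGGANTTTC (part of the NF-kB consensus), TGAGTCA (AP-1) or TTCNNNGAA (STAT).
Il6, chr5:30012864-30013163, plus strand: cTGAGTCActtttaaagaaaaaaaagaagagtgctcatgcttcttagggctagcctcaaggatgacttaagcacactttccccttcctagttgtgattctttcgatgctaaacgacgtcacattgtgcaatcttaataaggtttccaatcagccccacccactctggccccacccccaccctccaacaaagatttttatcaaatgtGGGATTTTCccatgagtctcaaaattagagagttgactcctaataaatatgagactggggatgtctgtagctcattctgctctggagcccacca
Il11, chr7:4778092-4778391, minus strand: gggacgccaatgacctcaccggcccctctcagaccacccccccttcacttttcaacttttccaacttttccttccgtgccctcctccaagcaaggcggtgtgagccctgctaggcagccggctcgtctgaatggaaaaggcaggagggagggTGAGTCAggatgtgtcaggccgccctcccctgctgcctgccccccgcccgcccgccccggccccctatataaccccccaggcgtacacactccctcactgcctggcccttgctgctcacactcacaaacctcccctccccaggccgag
Lif, chr11:4257318-4257617, plus strand: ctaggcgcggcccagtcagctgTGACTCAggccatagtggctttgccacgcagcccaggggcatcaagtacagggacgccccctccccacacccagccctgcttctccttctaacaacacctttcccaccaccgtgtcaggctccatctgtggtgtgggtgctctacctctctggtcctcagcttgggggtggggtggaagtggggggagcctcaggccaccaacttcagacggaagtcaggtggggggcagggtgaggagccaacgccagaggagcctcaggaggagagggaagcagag
Socs3, chr11:117969317-117969616, minus strand: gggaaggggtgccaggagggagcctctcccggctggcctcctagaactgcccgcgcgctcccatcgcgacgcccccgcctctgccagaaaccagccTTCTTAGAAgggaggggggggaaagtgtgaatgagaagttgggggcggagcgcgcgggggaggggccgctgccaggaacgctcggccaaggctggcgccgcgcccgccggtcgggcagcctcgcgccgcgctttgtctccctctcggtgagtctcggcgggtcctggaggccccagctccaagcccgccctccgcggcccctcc

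Among the 11 windows, the NF-kB letters were found in that of Il6 alone, 44 to 36 bases before the start, and they occur in 1.11% of all 32851 promoter windows of the table. The AP-1 letters were found in the windows of Il6 (249 to 243 bases before the start), Il11 (98 to 92) and Lif (228 to 222), against 5.20% of all windows. The STAT letters were found in the Socs3 window alone, 154 to 146 bases before the start, against 8.30% of all windows. The second Il11 window and those of Il6ra, Il6st, Osmr, both starts of Lifr, and Stat3 held none of the 3 motifs. TATAAA, which occurs in 13.6% of all windows, was found in none of the 11. The matches do not overlap each other, and they describe letters, not occupied sites.

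The libraries held between 8323809 and 10792531 counts, with the lowest total in APB-R3 replicate 1, and the 9 members together took 0.0521% to 0.0713% of the counts of a library. Messenger RNA was sequenced with the Lexogen QuantSeq kit, in which each transcript gives 1 fragment from its 3' end. Levels in CPM, a gene's count scaled to a common library total, may therefore be set side by side between genes without division by length. Markers show that the cultures were mixed, and of the marker lists that of liver endothelium had the highest sum in every library. The summed level of 10 liver endothelial markers was 6212 to 6937 CPM in APB-R3 and 6497 to 7121 CPM in vehicle, with Lyve1 the highest. The sum of 8 genes of activated stellate cells was 638 to 793 CPM in APB-R3 and 755 to 846 CPM in vehicle. That of 10 genes of quiescent stellate cells was 387 to 405 CPM in APB-R3 and 359 to 429 CPM in vehicle. The quiescent sum was mostly Dcn, a matrix proteoglycan gene, while Lrat, the retinol-esterifying enzyme that defines these cells, had 1.09 to 2.88 CPM. All 12 macrophage and Kupffer cell markers had a count, and their sum was 469.5 to 679 CPM in APB-R3 and 403 to 586 CPM in vehicle. Their levels were uneven, from Cd5l at 72.7 to 150 CPM down to Clec4f at 0.946 to 2.50 CPM and Timd4 with 5 counts over the 6 libraries. Hepatocyte markers summed to 4.45 to 14.2 CPM in APB-R3 and 7.71 to 32.5 CPM in vehicle, with the highest value in vehicle replicate 2. Of 6 neutrophil markers Ly6g was at 0 and of 6 lymphocyte markers Cd3e and Cd79a were at 0, with sums of at most 4.67 and 0.721 CPM in APB-R3 and 10.5 and 0.0959 CPM in vehicle. All levels below are therefore those of whole cultures, in which fewer cells of a type and less RNA per cell cannot be told apart.

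Along the pathway the transcription factor was the most abundant member and the ligands the least. Stat3 had 338 to 512 CPM over the 6 libraries and exceeded 98.5% of the 20496 genes with a count. Il6st followed with 58.8 to 76.3 CPM and Socs3 with 48.5 to 62.2 CPM, and these neighbours overlapped, with Il6st above Socs3 in 5 of 6 libraries. The other receptor chains came next, each separated from its neighbour in range: Lifr with 20.8 to 33.4 CPM, Il6ra with 12.97 to 19.8 CPM and Osmr with 6.47 to 12.1 CPM. Osmr overlapped Il11, which had 5.58 to 12.3 CPM, and was above it in 5 of 6 libraries. Lif (2.09 to 6.01 CPM) and Il6 (1.95 to 5.41 CPM) were lowest and had no stable order, with Lif above Il6 in 4 of 6 libraries. Among the members Il6st was above each of the other receptor chains in every library. It was at 3.57 to 5.61 times Il6ra in APB-R3 and 3.61 to 4.59 times in vehicle. Il11ra1, an alpha chain outside the members, was close to Il6st. It was above Il6st in APB-R3 replicate 1 (67.9 against 66.1 CPM) and vehicle replicate 1 (62.2 against 58.8 CPM), and below it in the other libraries.

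**Figure D1:**
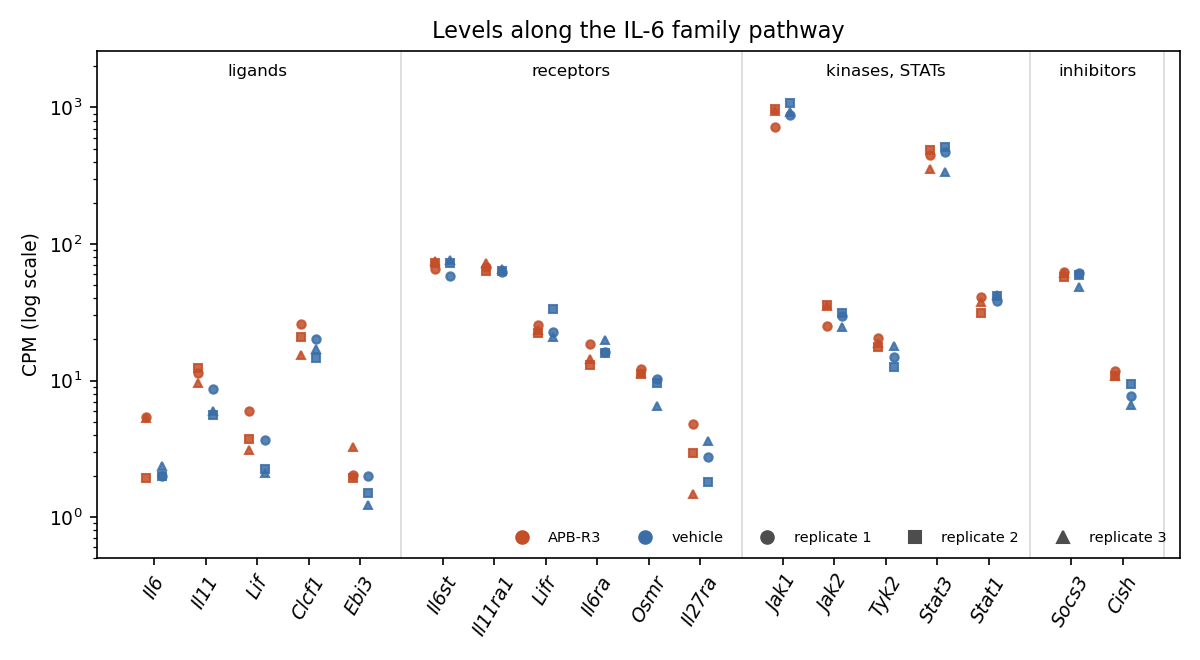
CPM on a log axis in each library (APB-R3 left in orange, vehicle right in blue, symbols for replicates) for ligands, receptors, kinases with STATs, and inhibitors of the family. Stat3 at 338 to 512 CPM and Jak1 stand far above the ligands Il6 and Lif, which lie between 1.95 and 6.01 CPM, and the groups lie close together at most genes.

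The comparison of APB-R3 with vehicle asks at which steps of the pathway transcript levels differ. None of the 9 members passed edgeR's quasi-likelihood test at a Benjamini-Hochberg adjusted p under 0.05 over the 12776 genes tested, which was also the case for every other gene (0 called, 0% of those tested). All 9 members passed the filter on low counts. Of the 9, 6 had a positive and 3 a negative log2 fold change, with a median of 0.09 beside 0.003 over all tested genes. Of all tested genes 50.7% had a positive log2 fold change, the share against which the lists below are to be read. At an unadjusted p under 0.05 there were 2 members, Il11 and Il6, both higher in APB-R3. At that level were 3.33% of all tested genes, 1.75% higher and 1.57% lower. The groups did not overlap in 2 members, Il11 and Osmr, both higher in APB-R3. Of the tested genes 8.91% did not overlap, 4.75% higher and 4.16% lower. DESeq2's Wald test and limma-voom called 0 members as well, with 2 and 1 members at an unadjusted p under 0.05. Over all tested genes 376 and 427 were at that level.

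Among the ligands, all 3 genes had higher means in APB-R3, without a call. Il11, a cytokine of stromal cells, had 11.4, 12.3 and 9.63 CPM in APB-R3 replicates 1 to 3, against 8.72, 5.58 and 5.996 CPM in vehicle replicates 1 to 3. Every APB-R3 library lay above every vehicle library, by a narrow margin between APB-R3 replicate 3 and vehicle replicate 1. These levels rest on 95 to 133 counts per library in APB-R3 and 59 to 91 in vehicle. The log2 fold change of Il11 was 0.71 (SE 0.26, 95% interval from 0.18 to 1.24, not adjusted), with an edgeR adjusted p of 0.9998 and an unadjusted p of 0.0108. With any 1 library left out the log2 fold change stayed between 0.60 and 0.93, and the unadjusted edgeR p between 0.00398 and 0.0424.

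Il6 split the APB-R3 libraries. It had 5.41, 1.95 and 5.36 CPM in APB-R3 replicates 1 to 3, against 2.01, 1.99 and 2.38 CPM in vehicle replicates 1 to 3. APB-R3 replicates 1 and 3 were above all vehicle libraries, while APB-R3 replicate 2 was level with them, so the groups overlapped. The counts were 45, 21 and 54 in APB-R3 and 21, 21 and 25 in vehicle. The exact Poisson 95% intervals, which cover counting error only, ran from 3.94 to 7.23 CPM in APB-R3 replicate 1 and from 1.20 to 2.97 CPM in replicate 2, so the difference between these libraries of the same group was larger than counting error. The log2 fold change was 0.98 (SE 0.47, 95% interval from 0.003 to 1.95), with an edgeR adjusted p of 0.9998. Its unadjusted p in edgeR was 0.0494, and it was above 0.05 with any library other than APB-R3 replicate 2 left out. Leaving out APB-R3 replicate 1 gave a log2 fold change of 0.76, and leaving out replicate 2 gave 1.32.

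Lif, the leukaemia inhibitory factor gene, had 6.01, 3.71 and 3.08 CPM in APB-R3 replicates 1 to 3, against 3.64, 2.27 and 2.09 CPM in vehicle replicates 1 to 3. The highest library was APB-R3 replicate 1, and APB-R3 replicate 3 lay below vehicle replicate 1. Its log2 fold change was 0.66 (SE 0.43, 95% interval from -0.24 to 1.56, edgeR adjusted p = 0.9998), and 0.33 without APB-R3 replicate 1.

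**Figure D2:**
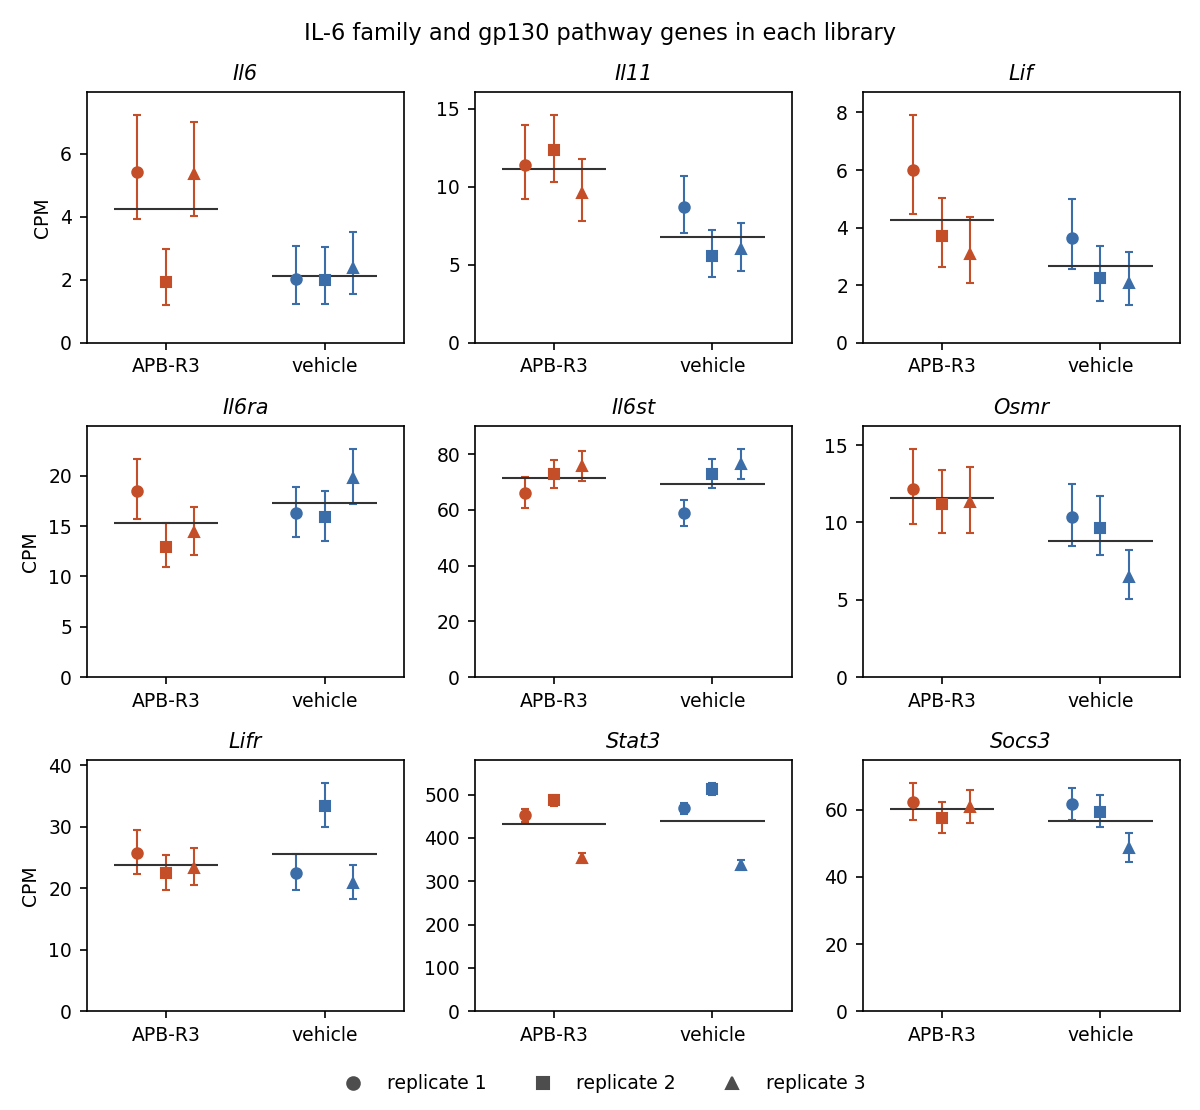
CPM of the 9 members in each library, APB-R3 left and vehicle right, with exact Poisson 95% intervals as bars, the group mean as a line and a symbol for each replicate. For Il11 and Osmr the lowest APB-R3 library is above the highest vehicle library, Il6 has APB-R3 replicate 2 at 1.95 CPM, level with the vehicle libraries, and Stat3 is low in replicate 3 of both groups.

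Other ligand genes of the family were mostly near or below the limit of detection. Of 9 listed, 7 had a count and 3 were tested, 2 higher and 1 lower with 0 passing and a median log2 fold change of 0.26, against 0.003 for all tested genes. Clcf1, a ligand of the ciliary neurotrophic factor receptor, was the most abundant ligand gene at 26.1, 20.9 and 15.5 CPM in APB-R3 and 20.3, 14.6 and 17.1 CPM in vehicle (log2 fold change 0.26, SE 0.20, 0.06 without APB-R3 replicate 1). Genes below the filter are named after their values were seen. Osm, the oncostatin M gene, had 4, 0 and 0 counts in APB-R3 and 4 in each vehicle library, and Cntf had 0 counts in APB-R3 and 2, 3 and 2 in vehicle. Il27 had 9 counts in APB-R3 replicate 1 and 0 in the other 5 libraries. A count of 0 allows up to 0.278 to 0.360 CPM in a library (3 counts). The differences of Osm and Cntf are therefore at the limit of what the depth can show. Il27 was above that limit, at 1.08 CPM, in APB-R3 replicate 1 only.

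Of the 4 receptor chains among the members, Osmr alone had groups that did not overlap. Osmr, the oncostatin M receptor chain, had 12.1, 11.2 and 11.3 CPM in APB-R3 replicates 1 to 3, against 10.4, 9.65 and 6.47 CPM in vehicle replicates 1 to 3. The APB-R3 libraries were close to each other and all above the vehicle libraries, of which replicate 3 was the lowest. The log2 fold change was 0.38 (SE 0.24, 95% interval from -0.11 to 0.87, edgeR adjusted p = 0.9998), and 0.20 without vehicle replicate 3.

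Il6ra, the IL-6 binding chain, had 18.5, 12.97 and 14.4 CPM in APB-R3, against 16.3, 15.9 and 19.8 CPM in vehicle, with overlapping groups. Il6st had 66.1, 72.7 and 75.6 CPM in APB-R3, against 58.8, 72.9 and 76.3 CPM in vehicle, an almost complete overlap. Lifr had 25.7, 22.4 and 23.3 CPM in APB-R3, against 22.5, 33.4 and 20.8 CPM in vehicle, where replicate 2 alone stood above all other libraries. The log2 fold changes were -0.19 (SE 0.19) for Il6ra, 0.04 (SE 0.12) for Il6st and -0.11 (SE 0.17) for Lifr. The sign of Il6st turned without vehicle replicate 1 (-0.07) and that of Lifr without vehicle replicate 2 (0.14). The 95% intervals, not adjusted, allowed a fold of 0.868 to 1.22 for Il6st, 0.666 to 1.15 for Il6ra and 0.719 to 1.19 for Lifr.

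Of 5 other receptor genes listed, 4 had a count and 2 were tested, both higher, with 0 passing and a median of 0.12 (-0.11 without APB-R3 replicate 1). Il11ra1, the IL-11 binding chain, had 67.7 ± 4.48 CPM in APB-R3 and 63.8 ± 2.03 CPM in vehicle (SD, n = 3 each, as for all ± values), 3.67 to 5.01 times the level of Il6ra in APB-R3 and 3.34 to 3.96 times in vehicle. Il27ra, the chain for IL-27, had 4.81, 2.97 and 1.49 CPM in APB-R3 and 2.78, 1.80 and 3.62 CPM in vehicle. Of 9 within-library ratios between pathway genes, 1 separated the groups. Osmr over Lifr was 0.472 to 0.500 in APB-R3 and 0.289 to 0.460 in vehicle. A two-sided exact permutation test of that ratio gave p = 0.1, the smallest that 3 against 3 libraries allow, and 0.9 after Benjamini-Hochberg adjustment over the 9 ratios. All 4 genes of receptor shedding, the step that frees soluble IL-6 receptor, were lower, with 0 passing and a median of -0.07 (-0.028 without APB-R3 replicate 1). Of these, the protease genes Adam10 and Adam17 had 171 ± 19.4 and 108 ± 15.1 CPM in APB-R3 and 179 ± 5.17 and 114 ± 8.21 CPM in vehicle. The lower mean of Adam10 came with 149 CPM in APB-R3 replicate 1. Replicates 2 and 3 had 185 and 179 CPM, against 173, 182 and 180 CPM in vehicle. The log2 fold change of Adam17 was -0.08 (SE 0.11), and with 1 library left out it ran from -0.21 without APB-R3 replicate 1 to -0.013 without vehicle replicate 2.

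**Figure D3:**
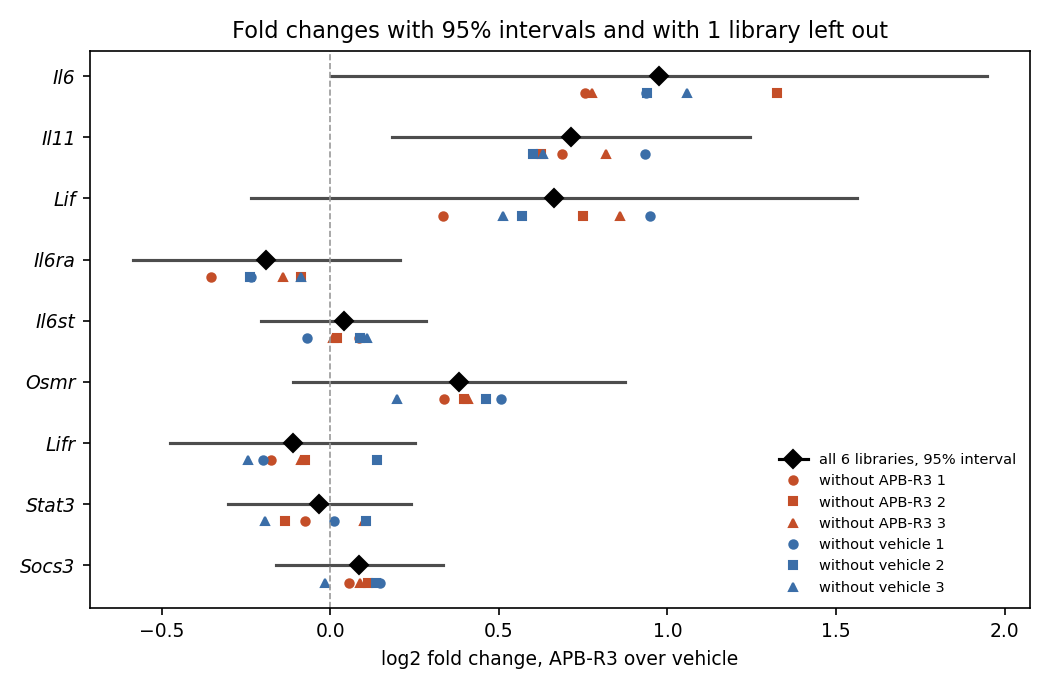
Log2 fold change of APB-R3 over vehicle for each member (diamonds) with its unadjusted 95% interval (lines), and the value with each library left out in turn (small symbols below the line, coloured by the group of the omitted library). Il11 stays between 0.60 and 0.93, whereas Il6st, Lifr, Stat3 and Socs3 lie on both sides of 0.

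Stat3 and Socs3, the genes of the pathway's transcription factor and of its brake, had nearly equal means in the groups. Phosphorylation of STAT3 was not measured, so the Stat3 transcript level is not a measure of signalling. Stat3 had 452, 487 and 354 CPM in APB-R3 replicates 1 to 3, against 468, 512 and 338 CPM in vehicle replicates 1 to 3. It was lowest in replicate 3 of each group, and that spread within a group was larger than the difference between the means. Socs3, the STAT3-induced inhibitor of gp130 signalling, had 62.2, 57.5 and 60.9 CPM in APB-R3, against 61.5, 59.4 and 48.5 CPM in vehicle. Apart from the lower vehicle replicate 3, its 5 libraries lay within 57.5 to 62.2 CPM. APB-R3 replicate 2, where Il6 was lowest, and replicates 1 and 3, where it was highest, thus had similar Socs3 levels. The log2 fold change was -0.03 (SE 0.13, 95% interval from -0.30 to 0.24) for Stat3 and 0.09 (SE 0.12, 95% interval from -0.16 to 0.33) for Socs3, each with an edgeR adjusted p of 0.9998. The sign of Stat3 turned without APB-R3 replicate 3 (0.10), vehicle replicate 1 (0.01) or vehicle replicate 2 (0.10), and that of Socs3 without vehicle replicate 3 (-0.02).

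Other signal transducers and inhibitors were evenly split, with 11 higher and 11 lower of 22 tested among 23 listed, 0 passing and a median log2 fold change of 0.001. Jak1, the kinase most tied to gp130, was the most abundant at 716, 969 and 940.5 CPM in APB-R3 and 885, 1074 and 918.5 CPM in vehicle. The adaptor gene Grb2 had 131 ± 5.54 CPM in APB-R3 and 129 ± 6.35 CPM in vehicle. Shc1, an adaptor towards the MAP kinase branch, had the smallest p of the list, with 42.2, 42.8 and 42.5 CPM in APB-R3 and 46.5, 57.7 and 48.6 CPM in vehicle, so that every APB-R3 library was lower (log2 fold change -0.27, SE 0.12, edgeR adjusted p = 0.9998, and -0.16 without vehicle replicate 2). Cish, a STAT5-induced relative of Socs3 named after its values were seen, had 11.8, 10.7 and 10.8 CPM in APB-R3 and 7.67, 9.46 and 6.66 CPM in vehicle, again without overlap and without a call (log2 fold change 0.48, SE 0.24, edgeR adjusted p = 0.9998). In this list Gab1 (lower in APB-R3) and Pias1 (higher), named in the same way, also had groups without overlap, beside 8.91% of all tested genes.

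Of 27 listed STAT3 target genes, all were tested, 19 were higher and 8 lower, 0 passed, and their median log2 fold change was 0.04 (0.01 without APB-R3 replicate 1). The most abundant were Ifitm3, an antiviral membrane protein, at 545 ± 31.5 CPM in APB-R3 and 537 ± 37.8 CPM in vehicle, and Klf6, a zinc finger factor, at 472 ± 43.8 CPM in APB-R3 and 460 ± 67.2 CPM in vehicle. Il4ra, the IL-4 receptor alpha chain, had the smallest p, with 193, 166 and 125 CPM in APB-R3 and 136.5, 140 and 95.5 CPM in vehicle. It shared with Stat3 its lowest level in replicate 3 of each group, and its log2 fold change was 0.38 (SE 0.14, edgeR adjusted p = 0.9998), or 0.21 without vehicle replicate 3. Its groups overlapped. Groups without overlap were those of Pim1, Vegfa, Timp1 and Hif1a, named after their values were seen and all higher in APB-R3. Over all tested genes 4.75% were higher without overlap.

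Acute-phase genes are, in hepatocytes, the classic liver output of IL-6. Hepatocyte markers were low in these cultures, and which cells made the listed transcripts here was not tested. Of 22 listed, 20 had a count, 13 of these with their highest level in vehicle replicate 2, and 8 were tested, all 8 lower in APB-R3, with 0 passing and a median log2 fold change of -0.55, or -0.05 without vehicle replicate 2. Lbp, the lipopolysaccharide-binding protein, and Cp, the ferroxidase ceruloplasmin, were the most abundant and had their highest level in APB-R3 replicate 1, at 21.9 ± 6.03 and 19.5 ± 4.66 CPM in APB-R3 and 22.1 ± 3.70 and 19.6 ± 5.68 CPM in vehicle. Hpx, the haem carrier hemopexin, had the smallest p, with 0.240, 0.185 and 0.993 CPM in APB-R3 and 0.959, 18.9 and 1.14 CPM in vehicle (log2 fold change -3.86, SE 0.91, or -1.12 without vehicle replicate 2). The fibrinogen chain gene Fgb, named after its values were seen, had 1.68, 1.30 and 0 CPM in APB-R3 and 1.25, 32.1 and 0.381 CPM in vehicle. Vehicle replicate 2 also had the highest summed hepatocyte markers, 32.5 CPM, with 4.45 to 14.2 CPM in the other libraries, and the part of those cells in the acute-phase values was not tested. Saa3, an acute-phase gene named after its values were seen, was lower in each APB-R3 library, with 7.57, 6.58 and 9.03 CPM in APB-R3 and 12.5, 27.6 and 10.7 CPM in vehicle (log2 fold change -1.14, SE 0.29, edgeR adjusted p = 0.9998, and -0.58 without vehicle replicate 2).

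Genes known to induce or otherwise regulate Il6, and their mediators, numbered 19, of which 15 were tested. Of these 10 were higher and 5 lower, with 0 passing and a median of 0.03 (-0.04 without APB-R3 replicate 1). The list mixes inducers with other regulators such as Zc3h12a and Arid5a, so its median is not a measure of Il6 induction. Cebpd and Rela, transcription factors that act on Il6, were the most abundant, at 211 ± 11.4 and 121 ± 10.4 CPM in APB-R3 and 197 ± 25.1 and 122 ± 9.99 CPM in vehicle. Il1b, the IL-1 beta gene, had the smallest p, with 36.5, 0.927 and 2.28 CPM in APB-R3 and 1.92, 1.70 and 0.476 CPM in vehicle (log2 fold change 3.24, SE 0.84, edgeR adjusted p = 0.9998, and 0.21 without APB-R3 replicate 1). Tnf, Il1a, Nfkbiz and Il1r1 are named after their values were seen. Tnf, the tumour necrosis factor gene, had 19.1, 0.834 and 4.17 CPM in APB-R3 and 3.55, 3.78 and 3.43 CPM in vehicle, and Il1a had 16.5, 3.71 and 6.95 CPM in APB-R3 and 4.70, 4.73 and 6.76 CPM in vehicle. APB-R3 replicate 1 was the highest library and APB-R3 replicate 2 the lowest for Tnf and Il1a. For Il6 these libraries were the extremes only by margins within counting error. Its level was 5.41 CPM in APB-R3 replicate 1 and 5.36 CPM in replicate 3. It was 1.95 CPM in APB-R3 replicate 2 and 1.99 CPM in vehicle replicate 2. APB-R3 replicate 3 had the second highest Tnf, Il1b and Il1a levels, but with 4.17 CPM of Tnf and 2.28 CPM of Il1b it stood near the vehicle libraries, while its Il6 equalled that of replicate 1. Without APB-R3 replicate 1 the log2 fold change was -0.55 for Tnf, against 1.13 (SE 0.59) in all libraries, and -0.04 for Il1a, against 0.72 (SE 0.39), while that of Il6 was 0.76. Nfkbiz, a nuclear cofactor of NF-kB needed for Il6 induction, had 117, 104 and 101 CPM in APB-R3 and 87.6, 82.3 and 84.99 CPM in vehicle (log2 fold change 0.33, SE 0.10, edgeR adjusted p = 0.9998). Il1r1, the signalling receptor for IL-1, was lower in each APB-R3 library, with 37.5, 40.3 and 39.2 CPM in APB-R3 and 51.7, 46.6 and 43.1 CPM in vehicle (log2 fold change -0.28, SE 0.12, edgeR adjusted p = 0.9998). APB-R3 replicate 1 also had the highest level of 4 of the 9 members (Il6, Lif, Osmr and Socs3), and vehicle replicate 3 the lowest of 5. Summed macrophage markers were not high in APB-R3 replicate 1 (469.5 CPM) but were highest in APB-R3 replicate 3 (679 CPM), and their part in the Il6 values was not tested.

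**Figure D4:**
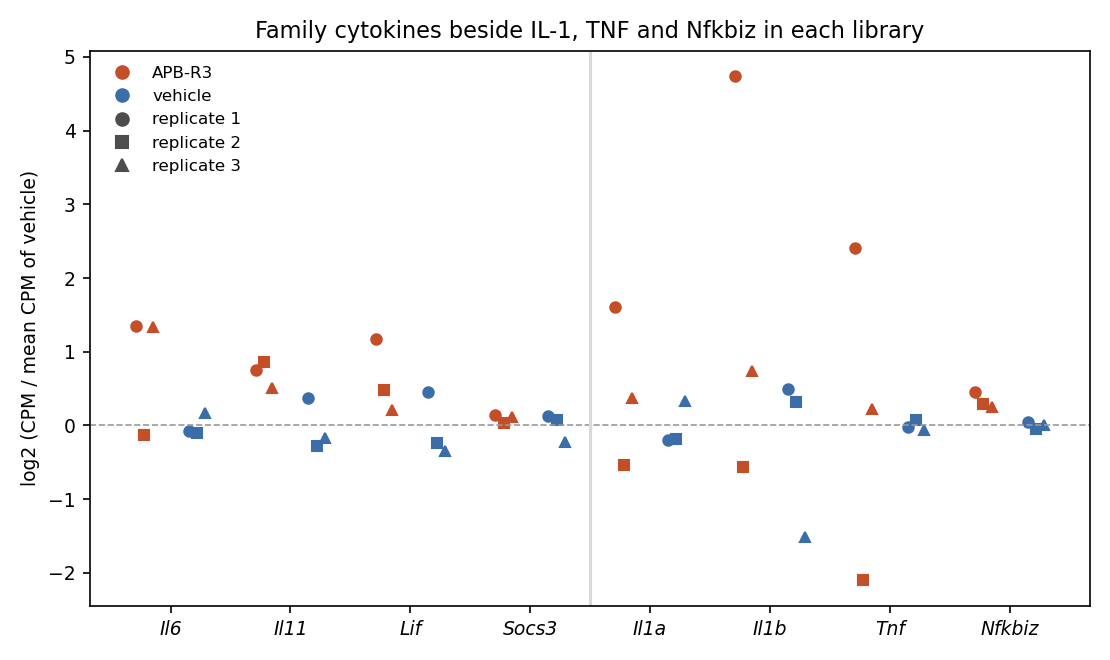
Log2 ratio of CPM in each library to the mean CPM of vehicle, for family genes (left) and Il1a, Il1b, Tnf and Nfkbiz (right), with APB-R3 in orange left of vehicle in blue and a symbol for each replicate. APB-R3 replicate 1 stands out at Il1b, Tnf and Il1a, Il6 is high in APB-R3 replicates 1 and 3, and Socs3 stays near 0 in all libraries.

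The genes whose levels followed those of a member most closely were found by Pearson correlation over the 6 libraries. It used log2 CPM after TMM scaling, whereas the levels printed here are CPM on library totals. Compared were tested genes with a mean of at least 5 CPM, with predicted genes left out. The points are the 6 libraries that all genes share, and the values describe the closest profiles only. For Il6 they were Ciao2a (r = 0.994), Pwp2 (0.987) and Rpl10a (0.982), of 9743 genes compared. Rpl10a, a ribosomal protein gene, had 59.8, 47.1 and 63.1 CPM in APB-R3 and 48.3, 45.8 and 47.6 CPM in vehicle, with APB-R3 replicates 1 and 3 above the other libraries as for Il6, on a smaller scale. For Il6st they were Ppcdc (r = 0.985), Flt1 (0.983) and Lpgat1 (0.982). Flt1, an endothelial receptor for vascular endothelial growth factor, had 28.5, 32.2 and 34.7 CPM in APB-R3 and 22.8, 33.2 and 38.4 CPM in vehicle. For Socs3 they were Polr1a (r = 0.991), Eif5a (0.990) and Timm13 (0.990), each lowest in vehicle replicate 3 as Socs3 was.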

How the data were processed

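Messenger RNA of 6 cultures was counted at its 3' end with the Lexogen QuantSeq kit, per the labels' protocols. Per the submitters' processing notes, bcl2fastq 2.20.0.422, fastp, STAR and HTSeq were used on GRCm39. For the other versions, the annotation, the strand setting and molecular identifiers, the sources used here give nothing. The authors deposited raw read counts per gene symbol, between 8323809 and 10792531 per library. Intervals from counting therefore cover counting error only. Each library took the group and number of its title, although the numbers in the file headers differ from it.

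Levels are CPM on library totals, except in the correlations, which used CPM scaled by the TMM factors named next. The comparison used edgeR 4.0.16 under R 4.3.3, filterByExpr (minimum count 10, minimum total 15), TMM factors and the two-sided quasi-likelihood test with treatment as the only term, adjusted by Benjamini-Hochberg over all 12776 tested genes of 20496 with a count. Standard errors are the log2 fold change over the square root of F. Scripts were tested on simulated counts. No library was a copy of another by a chi-square comparison of counts. The members, gene lists and tests were chosen with earlier results of these data known. Of each list, the 2 genes with the highest mean CPM and the gene with the smallest p are named. A gene that this rule names is not reported here. Promoters are RefSeq windows on GRCm38.p6, another build, matched by symbol, and no protein sequences were used. Alternatives were other scalings, filters and tools (DESeq2 1.42.0, limma 3.58.1), thinning, the 20 most abundant genes left out, a replicate block and libraries left out.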

Additional observations from a re-analysis of the deposited data

How the results depend on the processing

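Over 16 alternatives 0 members were called, the replicate block included. Over all genes 20 were called without the low-count filter, 8 of them in the lists above (Fga, Fgb, Hp, Hpx, Il1b, Saa1, Saa2 and Saa3), and between 0 and 1 with each library left out, 0 to 1 of them in the lists. The other alternatives called 0 genes. Il6, Il11, Lif, Il6ra and Osmr kept their direction in every alternative in which they were tested, with log2 fold changes of 0.72 to 1.32, 0.58 to 0.93, 0.24 to 0.95, -0.40 to -0.09 and 0.20 to 0.51. At least 5 CPM in 3 libraries left Il6 and Lif untested. At an unadjusted p under 0.05 were 425 of all tested genes with all libraries. In the alternatives, some of which tested other sets of genes, 311 to 695 were at that level. The number of members at that level was 2 with all libraries and in 7 alternatives. It was 1 in 8, among them the replicate block and 5 of the 6 omissions of a single library. It was 0, beside 523 of all tested genes, without both APB-R3 replicate 1 and vehicle replicate 2. Leaving out both turned Lifr to 0.075, Stat3 to 0.062, Clcf1 to -0.042, Tnf to -0.49 and Il1a to -0.11. With libraries left out, singly or both of these, log2 fold changes ran from -0.071 to 0.13 for Il6st, -0.24 to 0.14 for Lifr, -0.19 to 0.10 for Stat3, -0.016 to 0.15 for Socs3, -0.042 to 0.44 for Clcf1, -0.55 to 1.68 for Tnf, -0.11 to 1.101 for Il1a and -4.10 to 0.28 for Fgb. limma-voom turned Tnf to -0.0057. The causes were not tested. Deviations from the group mean correlated at 0.0397, 0.0463 and 0.0674 between same-numbered libraries and at -0.0496 to -0.00477 between the others. Each library thus correlated best with its own number. Lif, Il6st and Stat3 had the same replicate order in both groups, and the other members did not. The labels do not say whether the numbers mark pairs. The main comparison had no pairing term, and these correlations do not settle whether a pairing term is needed. With the replicate block 0 genes were called, and 539 were at an unadjusted p under 0.05, against 425 without it. Unadjusted p-values of edgeR's quasi-likelihood test moved both ways. With the block they were 0.0791 for Il6 (log2 fold change 0.88), 0.328 for Tnf, 0.00681 for Il11 (0.73) and 0.00023 for Il4ra. Without it they were 0.0494, 0.0698, 0.0108 and 0.0168. The edgeR adjusted p of Il1b and of Fgb was 0.0781 with the block and 0.9998 without it. The SE of Stat3 was 0.081 with it and 0.130 without it. At 21 to 54 counts of Il6 and 22 to 50 of Lif per library, depth limits the precision of both.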
